A study of Homo sapiens with 6 samples.

Results

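The interleukin-1 receptor gene cluster on chromosome 2 carries 6 receptor genes side by side, and it was examined here as a stretch of accessible chromatin in A549 cells. All DNase-seq peaks called between positions 102550000 and 103070000 (hg19) were taken, and peaks sharing at least 1 bp across libraries were merged to regions. This gave 26 regions out of 81216 in the genome, built from 110 of 357761 called peaks. The stretch was selected on measured values: it holds a strong region, at 102664892 to 102665325, that had a peak in every dexamethasone library and in no ethanol library. The contrast between treatments therefore helped to choose the stretch, and its values are given as a description with no test.

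In DNase-seq, nuclei are digested with the enzyme DNase I, which cuts where chromatin is accessible, and the cut ends are sequenced. The cells were A549, a human lung adenocarcinoma line, grown to near confluence. The cells of 3 libraries had received 100 nM dexamethasone, a synthetic glucocorticoid and ligand of the glucocorticoid receptor, for 1 h, and the other group of 3 had received 0.02% ethanol for 1 h as vehicle. The labels number the libraries 1 to 3 within each treatment and do not tell separate cultures from repeats of 1 culture, so the spread within a treatment may be technical. All libraries come from the same line, and its identity was not checked against marker genes, since the lists hold no expression values.

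Interleukin-1 is a cytokine that starts inflammation by binding a receptor on the cell surface. IL1R1 is its signalling receptor, whereas IL1R2 is a decoy that binds interleukin-1 without passing on a signal. IL1R2 is known from immune cells as a gene that glucocorticoids induce. The other members encode receptors for related cytokines: IL1RL2 binds interleukin-36, IL1RL1 (also called ST2) binds interleukin-33, IL18R1 is the ligand-binding chain of the interleukin-18 receptor, and IL18RAP is its accessory chain. In the RefSeq order of chromosome 2 the 6 genes follow each other as IL1R2, IL1R1, IL1RL2, IL1RL1, IL18R1 and IL18RAP, with only non-coding genes and pseudogenes between them. Every annotated start of the 6 members lies on the plus strand. Only IL1R2 was placed in hg19, at 102608306 to 102644884. Regions are therefore named by the distance of their centre from the IL1R2 gene start, and their overlap with the other 5 members was not analysed here.

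The promoter of IL1R2 is shown because IL1R2 is the member placed in hg19 and none of the 6 libraries had a peak at its start. It is the window of 250 bases before the first of 2 RefSeq starts of the gene, on the plus strand. The window lies at chr2:101991710-101991959 of GRCh38.p14, a build whose positions cannot be set beside the hg19 positions of the peaks. Capitals mark a TATAAA match, 30 bases before the start (position -30).

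IL1R2: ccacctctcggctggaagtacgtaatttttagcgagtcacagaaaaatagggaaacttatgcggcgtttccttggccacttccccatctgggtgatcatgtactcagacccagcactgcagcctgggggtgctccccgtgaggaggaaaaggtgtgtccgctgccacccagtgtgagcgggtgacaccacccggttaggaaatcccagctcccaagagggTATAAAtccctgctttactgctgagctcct

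Letters of a glucocorticoid receptor element (ACANNNTGT, an inverted repeat), of an AP-1 site (TGANTCA) and of an NF-kB site were sought on both strands. The 250 bases before each annotated start were searched, which gave 16 windows for the 6 members. Windows of neighbouring starts overlapped in IL1RL2 and in IL18RAP, so the 16 are not all separate sequences. TATAAA, also sought on both strands, was added after the data were seen. The windows of both IL1R2 starts held none of the first 3 motifs. A receptor element match was found before 1 start of IL1RL2 (ACAATGTGT, at -143) and before 1 start of IL1RL1 (ACAAAATGT, at -245), so in 2 of 16 windows, against 4.61% of the 35116 windows of all genes. The second start of IL1RL1 had 1 AP-1 match (at -191), against 6.57% of all windows, and no member window had an NF-kB match, against 5.21%. TATAAA matches were found in 3 of 16 windows, against 10.7% of all. The window of a start of IL1R1 was the richest of the members in G and C (76.8%), a window of IL18RAP the poorest (32.4%), and the median of all genes was 58%. These matches are letters in a window, not bound sites, and the sequence under the peaks themselves was not used here.

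Accessible sites were spread unevenly over the 520 kb, as the map of called peaks shows. The first region lay 14.4 kb inside IL1R2, and no library had a peak in the 72.7 kb from the left border to that point, which include the IL1R2 start. The widest gap inside the cluster, 96.7 kb, lay between the +266.9 kb and the +364.1 kb regions, and the next, 86.9 kb, between the +364.1 kb and the +451.6 kb regions. The nearest regions beyond the borders were 49.4 kb to the left, called in 2 dexamethasone and 2 ethanol libraries, and 19.4 kb to the right, called in 2 dexamethasone and 0 ethanol libraries. A site without a call stayed under the threshold of the peak caller, which does not make it closed. In a bulk library, a site accessible in fewer cells and one that is less accessible in every cell cannot be told apart.

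**Figure D1:**
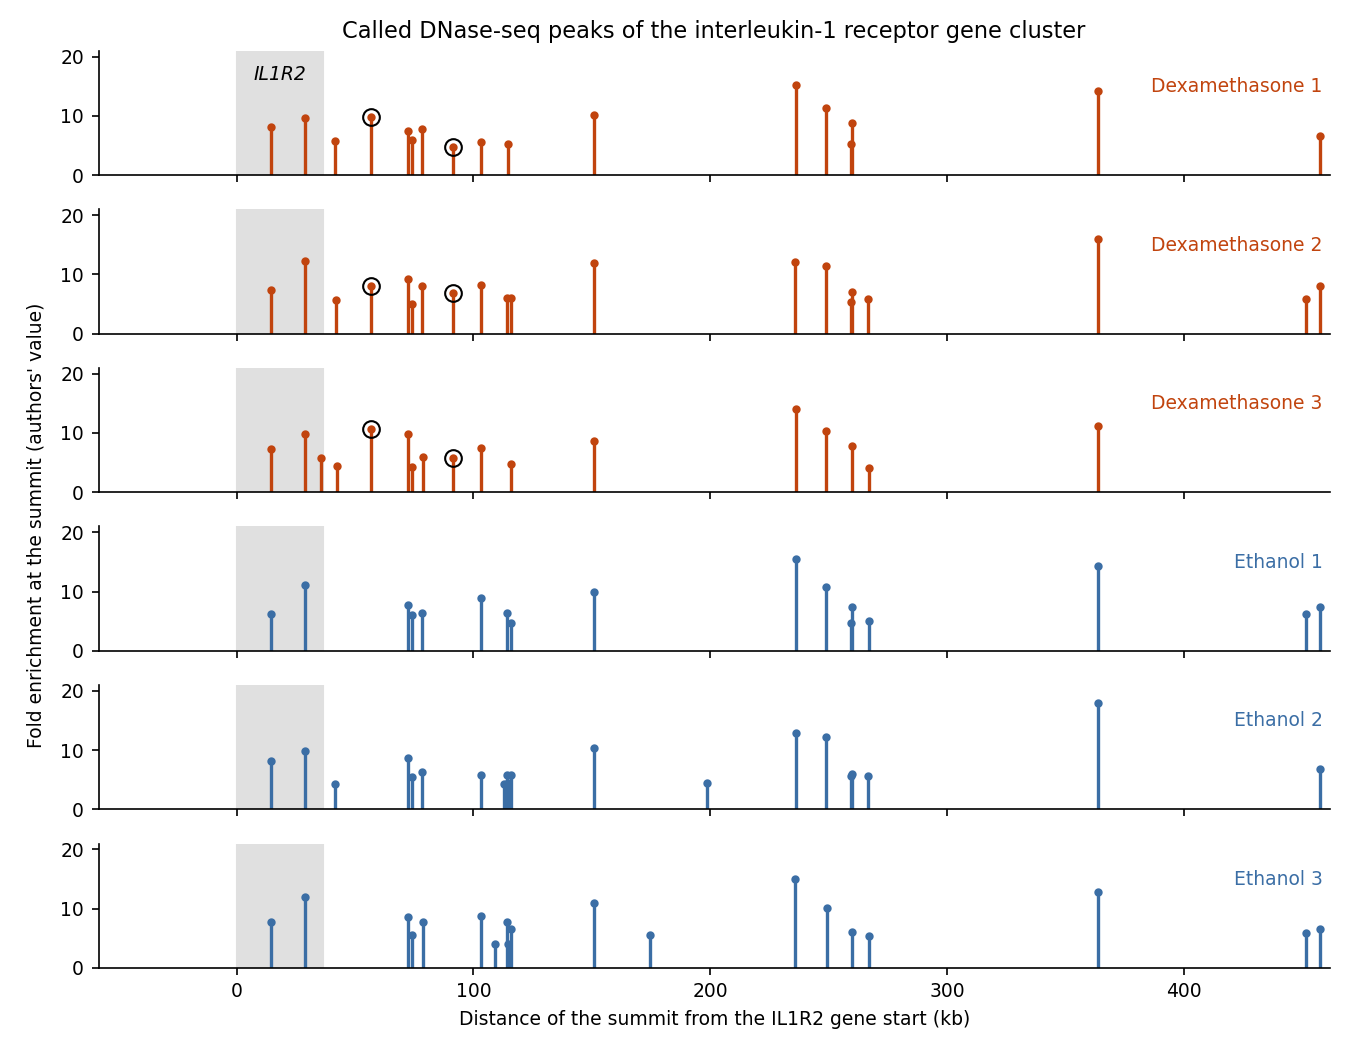
Called DNase-seq peaks in each library, placed by the distance of the summit from the IL1R2 gene start (x axis, kb), with the fold enrichment at the summit (y axis) as line height; grey marks IL1R2 and open circles mark the regions called in dexamethasone alone. The circled peaks at +56.8 kb and +91.3 kb are present in the 3 dexamethasone libraries and missing in the 3 ethanol libraries, while the tall peaks at +236.0 kb and +364.1 kb are present in all 6.

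Of the 26 regions, 22 had a peak in any dexamethasone library and 22 had one in any ethanol library, though not all the same ones. The shares of all regions in the genome with such a call were not determined, so nothing is read from these counts. The dexamethasone libraries had 17, 20 and 17 peaks in the stretch (replicates 1 to 3), and the ethanol libraries had 17, 20 and 19. The means were 18 ± 1.7 peaks with dexamethasone and 18.67 ± 1.5 with ethanol (SD, n = 3 each). The groups overlapped, and the replicates of 1 treatment differed by more than the means did. The bases covered by peaks were 6699, 7855 and 7012 with dexamethasone and 6301, 6712 and 6970 with ethanol, also with overlap. The whole lists held 58360 to 60646 peaks with dexamethasone and 58281 to 61344 with ethanol. The lists thus differed in length, and the read depth behind them is unknown.

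Of the 26 regions, 11 (42.3%) were called in all 6 libraries, against 49.2% of all regions in the genome. Another 6 (23.1%) were called in 1 library alone, against 18.9% of all regions. Of these single calls, 2 came from dexamethasone replicate 3 and 4 from ethanol replicates 2 and 3. Regions called in every dexamethasone and no ethanol library numbered 2 (7.69%), against 1.10% in the genome, a share that the choice of the stretch raised and from which nothing is read. Regions called in every ethanol and no dexamethasone library numbered 0, against 0.662%.

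The strong region at +56.8 kb lay 20.0 kb beyond the end of IL1R2, on the side of IL1R1. The fold enrichment at the summit, which is the authors' value for a peak over the caller's background estimate in its own library, was 9.81, 8.10 and 10.71 in dexamethasone replicates 1 to 3. No ethanol library had a peak there, and the nearest ethanol peak was 14.74 kb away. The −log10 q values of the 3 peaks were 33.3, 28.7 and 46.5. Within their own lists these lay at the percentiles 68.0, 63.1 and 82.2 of −log10 q, where 100 would be the strongest peak, so the site stood in the upper part of all 3 lists. By the mean of these percentiles, 71.1, it ranked 10 among the 897 dexamethasone-only regions of the genome, whose median was 24.7. Within the cluster it ranked 7 of the 22 regions called in any dexamethasone library, just behind the +29.0 kb region inside IL1R2.

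The 3 dexamethasone peaks at +56.8 kb had nearly the same borders. They were 364, 434 and 400 bp wide (replicates 1 to 3) and covered 83.9%, 100% and 92.2% of the merged region. Their summits fell within 42 bp of each other. At the 11 regions called in all 6 libraries, the summits of the 3 dexamethasone peaks spread over 7 to 89 bp, with a median of 44 bp. The site kept its call in 3 of 3 dexamethasone and 0 of 3 ethanol libraries under all the alternative ways of thresholding and joining peaks that were run. It was chosen as a strong region of this pattern, so its rank and this stability are a description and no support for it.

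**Figure D2:**
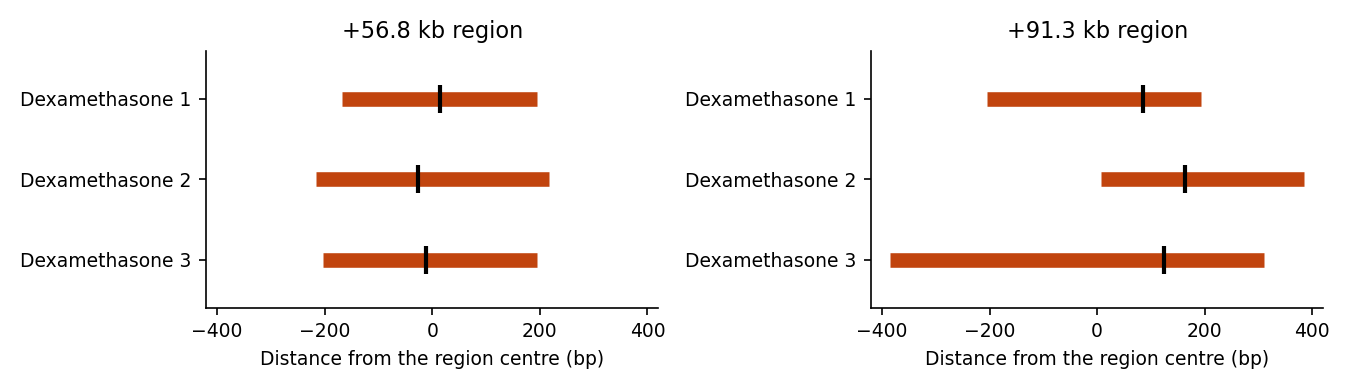
Extent of the dexamethasone peaks (bars) and their summits (black ticks) at both regions called in dexamethasone alone, by distance from the region's centre (x axis, bp) and library (rows). The summits lie within 42 bp at +56.8 kb and within 78 bp at +91.3 kb, where replicate 3 has the widest peak (696 bp) and the left borders differ most.

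The other dexamethasone-only region, at +91.3 kb (102699193 to 102699962), was weak. Its fold enrichment was 4.69, 6.88 and 5.78 in dexamethasone replicates 1 to 3, with no peak in any ethanol library and the nearest ethanol peak 11.53 kb away. The percentiles of these peaks within their lists were 3.2, 35.4 and 19.0, so the peak of replicate 1 was among the weakest of its list. It ranked 581 of the 897 dexamethasone-only regions. The peaks were 400, 378 and 696 bp wide and covered 51.9%, 49.1% and 90.4% of the merged region of 770 bp. When a peak had to cover 50% of its region, or when peaks had to share 50% reciprocally, the region was called in 2 of 3 dexamethasone libraries and the count of dexamethasone-only regions was 1.

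The dexamethasone-only regions stood 33.9 kb apart, and the 3 regions between them, at +72.5, +74.2 and +78.6 kb, were called in all 6 libraries. The +72.5 kb region had a fold enrichment of 7.51, 9.19 and 9.83 with dexamethasone and of 7.74, 8.59 and 8.64 with ethanol. The +74.2 kb region had 5.97, 4.97 and 4.22 with dexamethasone and 6.04, 5.51 and 5.60 with ethanol. The +78.6 kb region had 7.85, 8.12 and 5.98 with dexamethasone and 6.43, 6.38 and 7.77 with ethanol. At each of these 3 sites the values of both treatments overlapped.

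IL1R2 itself held 3 regions. The +14.6 kb region was called in all 6 libraries, with a fold enrichment of 8.16, 7.32 and 7.34 with dexamethasone and of 6.17, 8.20 and 7.67 with ethanol. The stronger +29.0 kb region reached 9.70, 12.32 and 9.80 with dexamethasone and 11.07, 9.92 and 11.90 with ethanol. Neither showed a separation of the treatments. The third, at +35.8 kb near the end of the gene, was called in dexamethasone replicate 3 alone, with a fold enrichment of 5.80 at the percentile 33.8.

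Just beyond the gene end, 5.0 kb from it, the +41.8 kb region was called in dexamethasone replicates 1 and 2 (5.69 and 5.63-fold, percentiles 23.9 and 25.3) and in ethanol replicate 2 (4.34-fold, percentile 4.6). Dexamethasone replicate 3 had no peak there but one at +42.3 kb, 0.20 kb further on, at the percentile 3.7.

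**Figure D3:**
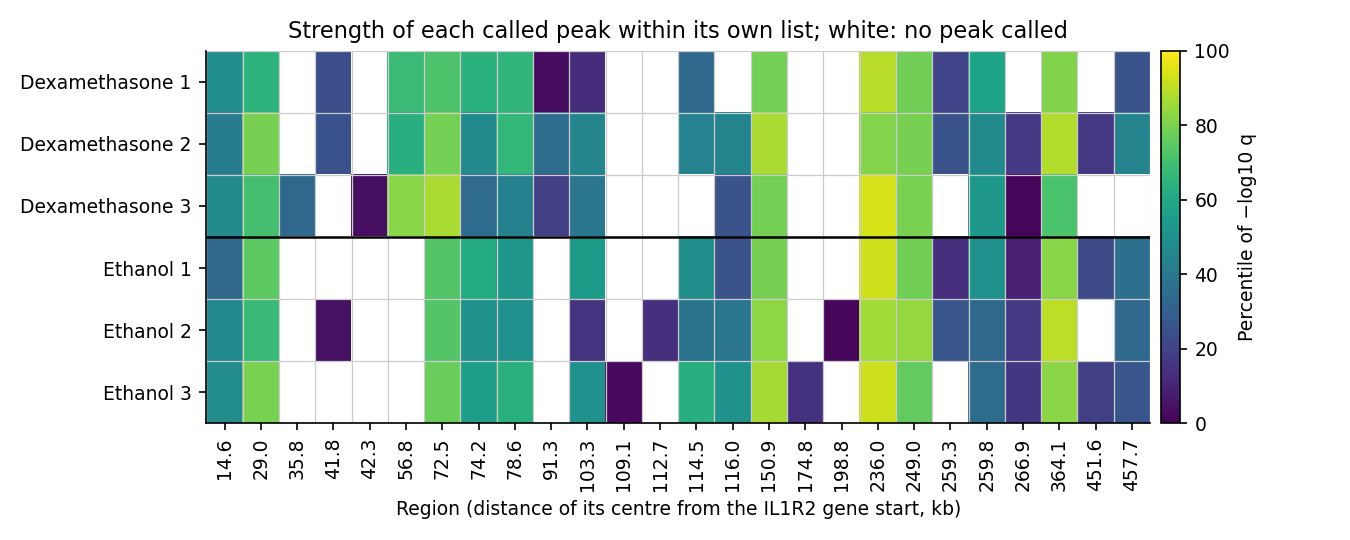
Percentile of −log10 q of each called peak within its own list (colour), for the 26 regions in genome order (columns, kb from the IL1R2 gene start) and the 6 libraries (rows, dexamethasone above the line); white cells had no called peak. Columns filled in more dexamethasone than ethanol libraries stand from 35.8 to 91.3 kb, and columns filled in more ethanol than dexamethasone libraries stand at 109.1 kb and beyond.

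The balance of calls between the treatments differed along the stretch. The 5 regions called in more dexamethasone than ethanol libraries (19.2%, against 19.7% in the genome) lay between +35.8 and +91.3 kb. They include both dexamethasone-only regions, and the stretch was chosen for the one at +56.8 kb. The share and the order therefore rest in part on that choice. The regions at +35.8 and +42.3 kb were called in dexamethasone replicate 3 alone. The 9 regions called in more ethanol than dexamethasone libraries (34.6%, against 22.5%) lay between +109.1 and +457.7 kb. Up to +91.3 kb the other 5 of 10 regions had equal calls, and beyond it the other 7 of 16 had. This order was noticed after the values were seen and was not tested.

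The regions leaning to ethanol were weak or missed by a single dexamethasone library. In 4 of them, at +114.5, +116.0, +266.9 and +457.7 kb, all 3 ethanol libraries and 2 of 3 dexamethasone libraries had a peak (15.4%, against 4.88% in the genome). The missing library was dexamethasone replicate 3 at +114.5 and +457.7 kb and dexamethasone replicate 1 at +116.0 and +266.9 kb. These are the shorter dexamethasone lists, with 58677 and 58360 peaks, and dexamethasone replicate 2, with 60646 peaks, had all 4 sites. Ethanol replicate 1, the shortest of the 6 lists with 58281 peaks, also had all 4, at percentiles of 49.6, 25.5, 8.8 and 37.1. Whether list length bears on these missing calls was not tested. Another 4 were called in 1 ethanol library alone, at percentiles of 1.9 to 14.6. The ninth, at +451.6 kb, was called in dexamethasone replicate 2 and in ethanol replicates 1 and 3, at percentiles of 16.8, 23.4 and 18.8.

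The strongest sites of the cluster lay far from IL1R2 and did not separate the treatments. The +236.0 kb region (102844066 to 102844605) had a fold enrichment of 15.14, 12.14 and 13.99 with dexamethasone and of 15.54, 12.91 and 14.96 with ethanol. The +364.1 kb region (102972020 to 102972859), alone between the widest gaps, had 14.16, 16.06 and 11.19 with dexamethasone and 14.29, 17.95 and 12.77 with ethanol. At both, equally numbered libraries stood in the same order of fold enrichment in both treatments, and every ethanol value was above the dexamethasone value of the same number. Every ethanol value was above its dexamethasone partner at +74.2 kb too. By percentile of −log10 q within the list, only +364.1 kb of these sites kept this. The percentile at +236.0 kb was 94.1 in dexamethasone replicate 3 and 92.2 in ethanol replicate 3. That at +74.2 kb was 63.8 in dexamethasone replicate 1 and 61.6 in ethanol replicate 1. How often every ethanol value stands above its partner by fold enrichment over the genome was not determined. The +249.0 kb region had 11.41, 11.46 and 10.36 with dexamethasone and 10.69, 12.20 and 10.16 with ethanol. There the libraries also stood in the same order, but ethanol was above dexamethasone in replicate 2 alone.

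The widest region of the cluster, at +150.9 kb (102758744 to 102759723, 980 bp), had a fold enrichment of 10.19, 11.97 and 8.61 with dexamethasone and of 9.87, 10.38 and 11.03 with ethanol. The weakest of the regions called in every library, at +103.3 kb, had 5.66, 8.24 and 7.47 with dexamethasone and 8.99, 5.75 and 8.71 with ethanol. Its percentile was 13.2 in dexamethasone replicate 1 and 15.6 in ethanol replicate 2, so 1 library of each treatment held it in the lower part of its list. The groups overlapped at both sites.

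To set the constitutive sites side by side on a scale with the same features in every library, the 39934 regions called in all 6 libraries were ranked by −log10 q within each library. At none of the 11 sites of the cluster did the 3 dexamethasone percentiles all lie above the 3 ethanol percentiles, a pattern found in 5.79% of the 39934 regions. At none did they all lie below, a pattern found in 5.62%. With 11 sites, shares of this size amount to less than 1 site each. Equally numbered libraries deviated together weakly (correlations of 0.131 to 0.207) and were also compared as pairs, which the labels do not state. Within all 3 numbered pairs the dexamethasone percentile was above that of ethanol at 1 of the 11 sites (+259.8 kb), against 14.2% over the genome. It was below that of ethanol at 1 (+364.1 kb), against 14.6%. Both counts are near the shares of the genome. The mean percentile was higher with dexamethasone at 4 sites and lower at 7. The genome shares of higher and lower means were not determined, so nothing is read from this split. The median difference, dexamethasone minus ethanol, was -1.58 points, against -0.12 over the genome.

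The largest difference was at +259.8 kb (102867917 to 102868391). Its percentiles among these regions were 40.2, 24.3 and 34.1 with dexamethasone and 29.7, 11.0 and 12.8 with ethanol, a difference of 15.0 points between the means. Dexamethasone replicate 2 lay below ethanol replicate 1, so the groups overlapped, but within each of the 3 equally numbered pairs the dexamethasone library was the higher one. The difference lay just outside the central 90% of such differences over the genome (-13.9 to 13.9 points). The site was picked as the largest of 11 differences, and part of the genome lies outside this band by definition. Nothing is therefore read from its place, which was not tested. A weaker neighbour, 0.13 kb away at +259.3 kb, was called in dexamethasone replicates 1 and 2 and in ethanol replicates 1 and 2. The next largest positive difference, 8.0 points, was at +72.5 kb, with percentiles of 59.7, 68.4 and 81.6 with dexamethasone and 60.9, 59.6 and 65.1 with ethanol. The lowest difference, -7.2 points, was at +103.3 kb, with 2.9, 21.8 and 19.2 with dexamethasone and 35.3, 2.7 and 27.4 with ethanol.

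**Figure D4:**
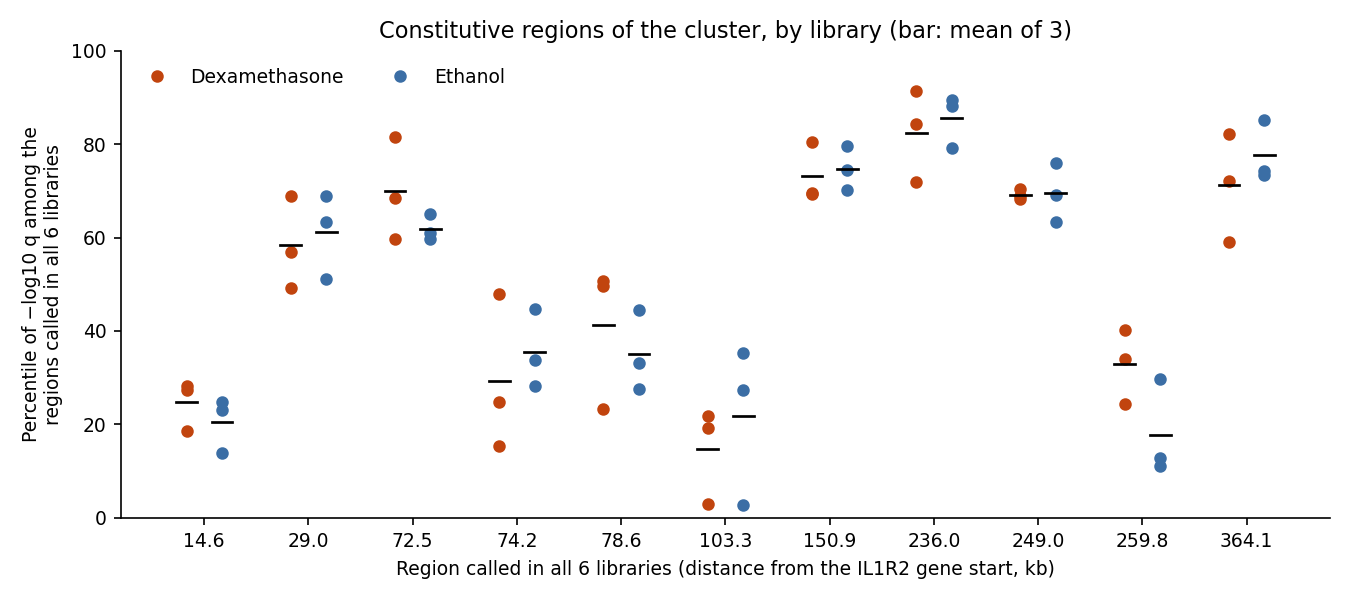
Percentile of −log10 q among the 39934 regions called in all 6 libraries (y axis) for the 11 such regions of the cluster (x axis, kb from the IL1R2 gene start), with 1 point per library and a bar for the mean of 3. Points of both treatments overlap at all 11 regions, and the means stand farthest apart at 259.8 kb, 32.9 with dexamethasone and 17.8 with ethanol.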

How the data were processed

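The data were 6 DNase-seq peak lists, 3 after dexamethasone and 3 after ethanol. Per the submitters' processing notes, CASAVA 1.3, Bowtie, bedtools and MACS2 2.1.0 were used with hg19; settings are not given in the sources used here, and read depth is unknown. Peaks are numbered from 1 in every list, so they were called per library as far as the files show. The deposited ratio is a fold enrichment at the summit, and the deposited −log10 p and q-value belong to each peak's own list (lowest −log10 q 2.51 to 2.71). The deposited score follows the −log10 q and was not used. The last deposited column, the summit offset, was added to the peak start.

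Peaks were merged with own code (Python 3.11.15, pandas 2.3.3), checked on simulated peaks. Where a library had several peaks in a region, the one with the highest −log10 q stands for it. Positions count from 1. The RefSeq tables (GRCh38.p14) matched 6 of 6 members and served for names, order and promoter sequence alone. No 2 lists shared more than 27 peaks with identical borders.

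Equally numbered libraries deviated together weakly from their treatment's mean percentile over the 39934 regions called in all libraries (correlations of 0.207, 0.131 and 0.163, pairs 1 to 3). Unequal numbers gave -0.175 to -0.016. Deviations from a group mean cancel within the group, so these values are not separate from those of equal numbers. The numbers were taken to pair the libraries, though the labels state no pairing. Both comparisons, with and without this pairing as a replicate block, were made. The members, region rules and alternatives were chosen with earlier results of these data known. Regions named were those called in every library of 1 treatment alone, those with calls differing by at least 2 libraries, those called in all 6 and the one nearest the IL1R2 start; the single and partial calls named beside them were chosen after their values were seen.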

Additional observations from a re-analysis of the deposited data

How the results depend on the processing

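The 2 dexamethasone-only and 0 ethanol-only regions were counted again under a −log10 q of at least 5, lists of one length, summits joined within 100 bp, gaps of 100 bp merged, 50% cover, 50% reciprocal overlap, a window changed by 50 kb on either side, and without each library. The dexamethasone-only count was 1 under 50% cover and under 50% reciprocal overlap and 2 in every other case, because the peaks at +91.3 kb differ in extent. The ethanol-only count was 0 throughout, and the count called in all libraries was 11 to 13. With the replicate block, where at least 2 of 3 numbered pairs must have a peak in 1 treatment alone and no pair the reverse, the counts were 2 and 0, as without it. The difference in peaks per library, dexamethasone minus ethanol, was -0.667 and ranged from -1.67 to 0 without 1 library; it was 0 with lists of one length and with either changed window. Among constitutive sites, the count whose dexamethasone percentiles all lay above ethanol was 0 to 2 without 1 library, and the count below was 0 to 2; fewer libraries make such separation easier by construction. Ranking by fold enrichment, chosen after the data were seen, gave 0 and 0. Asking for the same order in all 3 numbered pairs instead (replicate block, also chosen later) gave 1 above and 1 below, and with ranks by fold enrichment 1 above and 3 below. The genome share of this order by fold enrichment was not determined, so nothing is read from the counts by fold enrichment. The lists hold called peaks without reads, so the signal at a site without a call, such as +91.3 kb with ethanol, is unknown.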
